A study of Mus musculus with 6 samples.

Results

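Interferon-stimulated genes are the genes whose transcription rises when a cell senses interferon. The list held 49 such genes, given by name, with no measured value in the rule, and all 49 were found among the 46983 genes of the table. Of them, 46 had a mean of at least 0.5 FPKM over the libraries and were tested together with all 13312 genes that passed this minimum, while *Ifi44*, *Oas1g* and *Ifi204* did not pass. FPKM scales the reads of a gene by the length of its transcripts and the depth of the library.

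Bulk RNA-seq was performed on mouse splenic B cells under conditions that induce class switching to IgA, with 3 WT libraries (WT1, WT2 and WT3) and 3 *Hif1a* KO libraries (KO1, KO2 and KO3). In the KO mice, which were *Hif1a* f/f on a C57BL/6 background, cre recombinase expressed from the *Mb1* locus deletes the floxed part of *Hif1a* in the B-cell lineage. The WT mice were littermates, either *Hif1a* f/+ with cre or *Hif1a* f/f without cre, and the labels do not give which of these each WT library came from. Cells of all 6 libraries were cultured for 3 days with 5 μg/ml of the TLR4 ligand LPS plus BAFF, IL-5 and TGF-β, each given as 10 ng/ml. According to the methods, follicular B cells were sorted from the spleen by CD21 and CD23, and no library without stimulation was analysed here. The labels do not tie the libraries to separate animals, so that p-values measure the spread between these libraries, whatever its source.

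Type I interferons bind the receptor chains IFNAR1 and IFNAR2, whose kinases JAK1 and TYK2 phosphorylate STAT proteins. STAT2 and IRF9 belong to the complex ISGF3, which binds the interferon-stimulated response element (ISRE) in the promoters of the stimulated genes, while STAT dimers bind the gamma-activated sequence (GAS). Many of the proteins made then restrict viruses, and others, such as USP18, dampen the signal. In B cells, LPS acts through TLR4, which can itself lead to the production of type I interferon.

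The promoters of the list were read first, since the ISRE is the sequence through which ISGF3 acts. Promoter sequences of RefSeq (GRCm38.p6, 250 bases before to 50 after each start) were at hand for 38 of the 49 genes. An ISRE core, taken as a pair of GAAA half-sites with any 2 bases between them, on either strand (a pair of TTTC on the other), stood in the promoter of 21 of these 38 genes (55.3%), against 1079 of 27025 genes with a promoter in the same table (3.99%). The GAS core TTCNNNGAA, which reads the same on both strands, stood in 7 of 38 (18.4%) against 9.55% of all genes. The windows shown here were taken from the families the results turn on, and capitals mark the ISRE core, or several cores that overlap.

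*Isg15*, chr4:156200850-156200921, minus strand: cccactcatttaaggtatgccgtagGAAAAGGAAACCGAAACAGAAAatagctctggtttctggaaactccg
*Ifit1*, chr19:34640760-34640838, plus strand: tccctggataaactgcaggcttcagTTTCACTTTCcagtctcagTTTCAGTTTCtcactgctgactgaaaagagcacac
*Ifit3*, chr19:34583348-34583441, plus strand: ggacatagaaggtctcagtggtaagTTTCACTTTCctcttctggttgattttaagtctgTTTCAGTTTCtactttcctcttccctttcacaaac
*Oas1a*, chr5:120907526-120907570, minus strand: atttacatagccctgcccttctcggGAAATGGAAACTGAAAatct
*Oas3*, chr5:120777700-120777759, minus strand: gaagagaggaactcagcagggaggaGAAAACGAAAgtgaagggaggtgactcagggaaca
*Rsad2*, chr12:26456538-26456597, minus strand: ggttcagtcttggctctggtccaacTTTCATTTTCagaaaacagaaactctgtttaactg
*Stat2*, chr10:128270251-128270310, plus strand: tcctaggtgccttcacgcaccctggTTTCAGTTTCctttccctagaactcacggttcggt
*Gbp3*, chr3:142559974-142560039, plus strand: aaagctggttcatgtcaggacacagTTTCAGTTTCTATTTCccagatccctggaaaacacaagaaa

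In the *Isg15* window 3 cores overlap, the first 78 and the last 66 bases before the start. *Ifit1* and *Ifit3* each hold 2 separate cores, and the window of *Ifit3b* (chr19:34607744-34607837) is letter for letter that of *Ifit3*. The cores of *Oas1a* overlap and begin 20 and 14 bases before the start, and those of *Gbp3*, a member that varied little, overlap as well. Among the tested members with a promoter sequence, the median range over the 6 libraries was 1.26 on the log2 scale for the 20 that hold the ISRE core and 0.82 for the 16 that lack it, given as a description with no test. *Irf7*, *Irf9*, *Oasl1*, *Oasl2* and *Ifit2* were among the 17 genes without the core in this window, which says only that these letters are not there. The entries for *Mx1*, *Mx2*, *Oas2*, *Usp18*, *Rtp4*, *Dhx58*, *Zbp1*, *Parp9*, *Parp14*, *Ifi27l2a* and *Ifi204* were missing from the table.

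The depth recovered from the values was 25030210 to 37222477 reads per library, at which a single read on 1 kb of transcript equalled 0.0269 to 0.0400 FPKM. *Hif1a* itself was at 36.5, 49.8 and 45.8 FPKM in WT1, WT2 and WT3 and at 46.5, 45.6 and 52.8 FPKM in KO1, KO2 and KO3. Its values overlapped (limma, log2 fold change 0.14 ± 0.12 (SE, n = 3 and 3), adjusted p = 0.701), and a sum over all exons does not check the deletion of a part of the gene. Over all genes, the first principal component held 54.7% of the variance and placed WT2 and WT3 at 26.2 and 25.9, apart from WT1 (-15.7) and the 3 KO libraries (-19.5 to -7.10). KO2 was the only library with the Y-linked *Ddx3y* at a level above 0.01 FPKM (43.3 FPKM), so that the sex of the mouse differed as well. The fold changes of the members described in full are given with and without WT1.

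The interferon-stimulated genes differed widely among libraries of the same genotype, and the values of WT and KO overlapped in every member tested. WT2 and WT3 carried the highest levels, KO2 followed, and WT1 and KO1 carried the lowest levels, with KO3 between. The order WT2 and WT3 above KO2, KO2 above KO3 and KO3 above both WT1 and KO1 was kept by 25 of the 46 members tested (54.3%), against 2.04% of all genes tested. This order was described after the values had been seen, and no test was made of it. WT1 and KO1 were the lowest libraries in 33 members (71.7%, against 6.94% of all genes). The highest library was WT2 in 31 members (67.4%, against 23.0% of all genes), KO2 in 10 (21.7%, against 14.3%), WT3 in 4 (8.70%, against 23.9%) and KO3 in 1 (2.17%, against 19.1%).

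**Figure D1:**
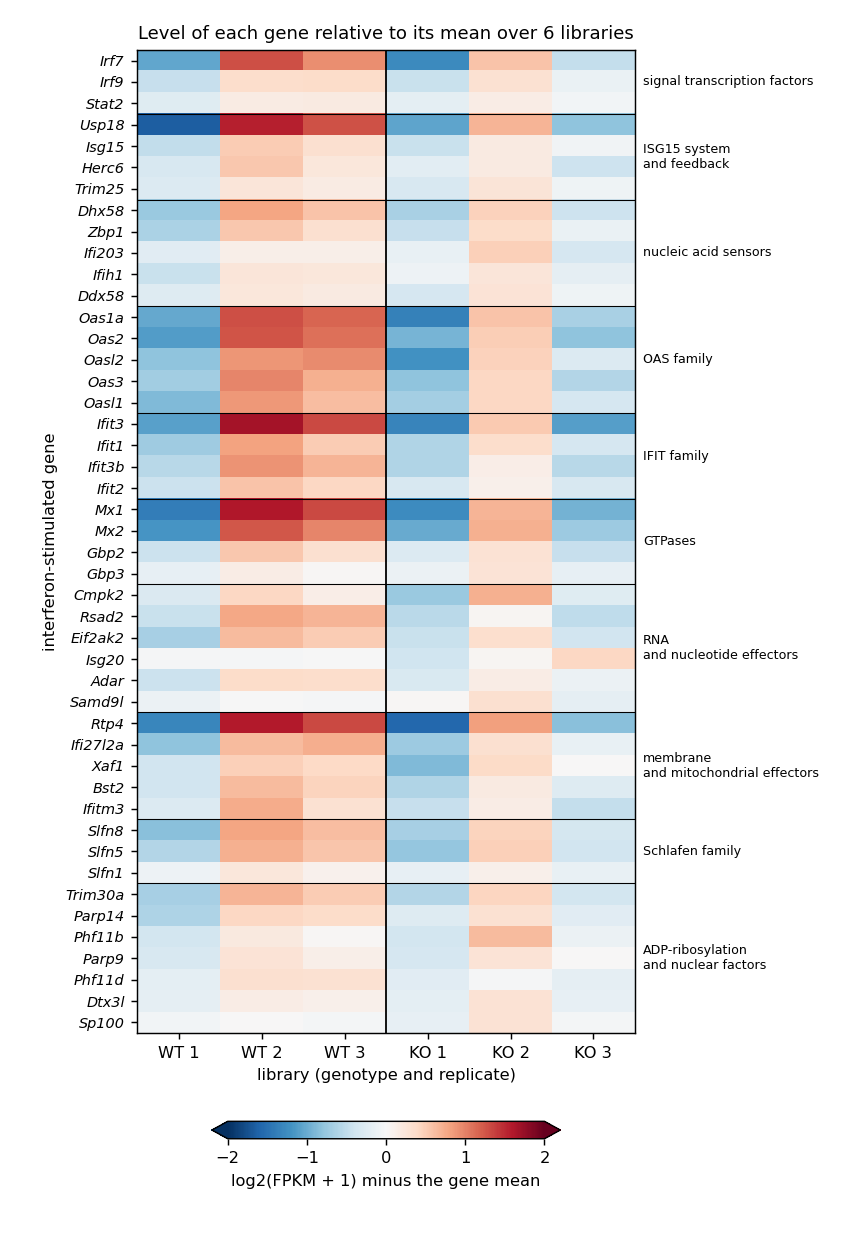
Level of the 46 tested interferon-stimulated genes (rows, grouped by role) in the 6 libraries (columns), as log2(FPKM + 1) minus the mean of the gene, in red above and in blue below it. WT2, WT3 and KO2 are red and WT1 and KO1 blue in most rows, and the contrast is strongest in the OAS and IFIT families, *Mx1*, *Mx2*, *Usp18*, *Rtp4* and *Irf7*.

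Relative to the mean of each gene, the median member stood at -0.45 in WT1, 0.56 in WT2, 0.38 in WT3, -0.46 in KO1, 0.32 in KO2 and -0.30 in KO3 on the log2(FPKM + 1) scale. Over all genes tested, the same medians lay between -0.025 and 0.036, so that the shift was not shared by the bulk of the genes. In WT1, 0 of 46 members lay above their own mean, whereas 44 did in WT2, 43 in WT3, 1 in KO1, 45 in KO2 and 3 in KO3. The median member ranged over 1.23 on the log2 scale from its lowest to its highest library, against 0.358 for all genes, and 28 members (60.9%) ranged over more than 1, against 7.34% of all genes. The standard deviation within a genotype was 0.50 for the median member and 0.13 for the median of all genes on that scale.

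**Figure D2:**
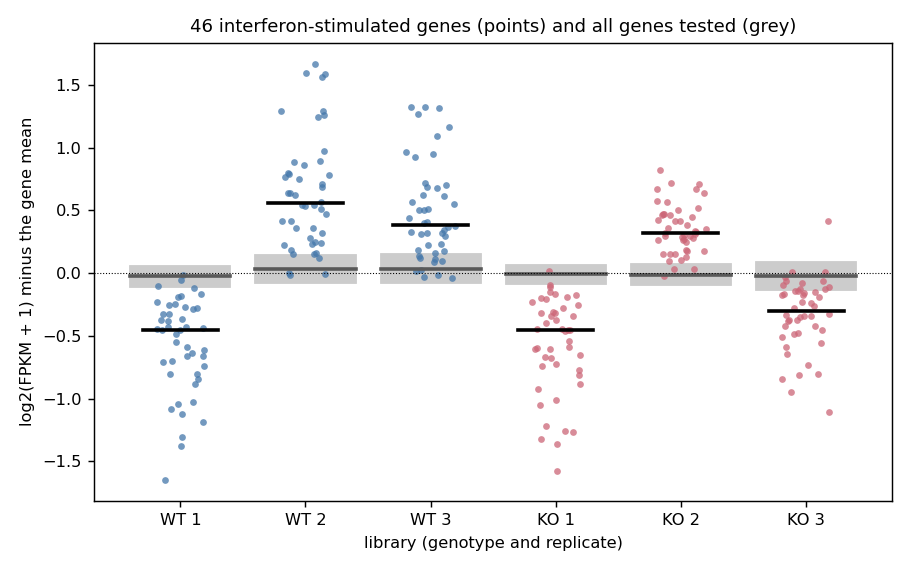
Deviation of each of the 46 members from its own mean (points, blue WT and red KO) by library on the log2(FPKM + 1) scale, with the median of the members as a black bar and the median and quartiles of all 13312 genes tested in grey. Most members of WT1 and KO1 lie below 0 (46 and 45 of 46), and most of those of WT2, WT3 and KO2 above it (44, 43 and 45).

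Between single libraries the differences reached the size of a full doubling. The median member was higher by 1.01 on the log2 scale in WT2 than in WT1, and 45 of 46 members were higher. A difference of more than 1 was found for 25 members (54.3%), against 1.74% of all genes. WT3 exceeded WT1 by 0.84 in the median member, with 46 of 46 members higher, 20 of them by more than 1 (43.5%, against 1.67%). The KO libraries held a similar contrast, since KO2 exceeded KO1 by 0.77 in the median and 46 of 46 members were higher, 19 of them by more than 1 (41.3%, against 0.608% of all genes). KO3 exceeded KO1 by only 0.23 in the median member, and by more than 0.5 in 8 members (17.4%, against 1.99%). By comparison, KO1 and WT1, which differ in genotype, were 0.026 apart in the median member and 24 of 46 members were higher in KO1. KO2 lay 0.31 below WT2 in the median member, with 11 of 46 members higher and 12 lower by more than 0.5 (26.1%, against 5.96% of all genes). KO3 lay below WT3, with a median difference of -0.72 and 2 of 46 members higher. The widest gap of any pair also crossed the genotypes, KO1 against WT2, at -1.12 with 1 of 46 members higher. These are differences between pairs of libraries, and they have no replicates.

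In the comparison of the genotypes, 0 of the 46 members passed an adjusted p of 0.05 (limma on log2(FPKM + 1), Benjamini-Hochberg over all genes tested), as did 0.00% of all genes. The smallest adjusted p of a member was 0.626, and over all genes it was 0.321. At an unadjusted p under 0.05 there were again 0 members, against 6.98% of all genes (2.48% higher and 4.50% lower in KO), and limma-voom on the recovered reads also gave 0 at either threshold. In 0 members did the KO values all lie on one side of the WT values, against 10.1% of all genes. The fitted log2 fold change was below 0 in 42 of 46 members (91.3%, against 57.9% of all genes), with a median of -0.33 against -0.028 for all genes, and it was above 0 in *Sp100*, *Samd9l*, *Isg20* and *Phf11b*. With a median-ratio scaling of the libraries, 39 members and 47.0% of all genes were below 0.

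These counts turned on WT1. Without it, 2 members, *Rsad2* and *Ifit3b*, were lower in KO at an adjusted p under 0.05 (4.35%, against 5.75% of all genes lower), and 29 were lower at an unadjusted p under 0.05 (63.0%, against 18.9%). The median log2 fold change of the members was then -0.63. The 3 KO values lay below both remaining WT values in 32 of 46 members, against 4265 of 13312 genes (32.0%). The share of members called at the adjusted p was thus not above that of all genes. The shares at the unadjusted p and without overlap were above those of all genes. Without KO2 the groups did not overlap in 5 of 46 members, all lower in KO (against 12.2% of all genes). Without KO1 this held for *Isg20* alone and without KO3 for *Samd9l* alone, both higher in KO (against 8.41% and 7.68% of all genes). With WT1 present, the 95% confidence intervals reached from -3.18 to 1.05 for *Rtp4* and from -2.89 to 1.32 for *Usp18*, and fold changes of that size in either direction were not resolved by 3 libraries against 3.

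**Figure D3:**
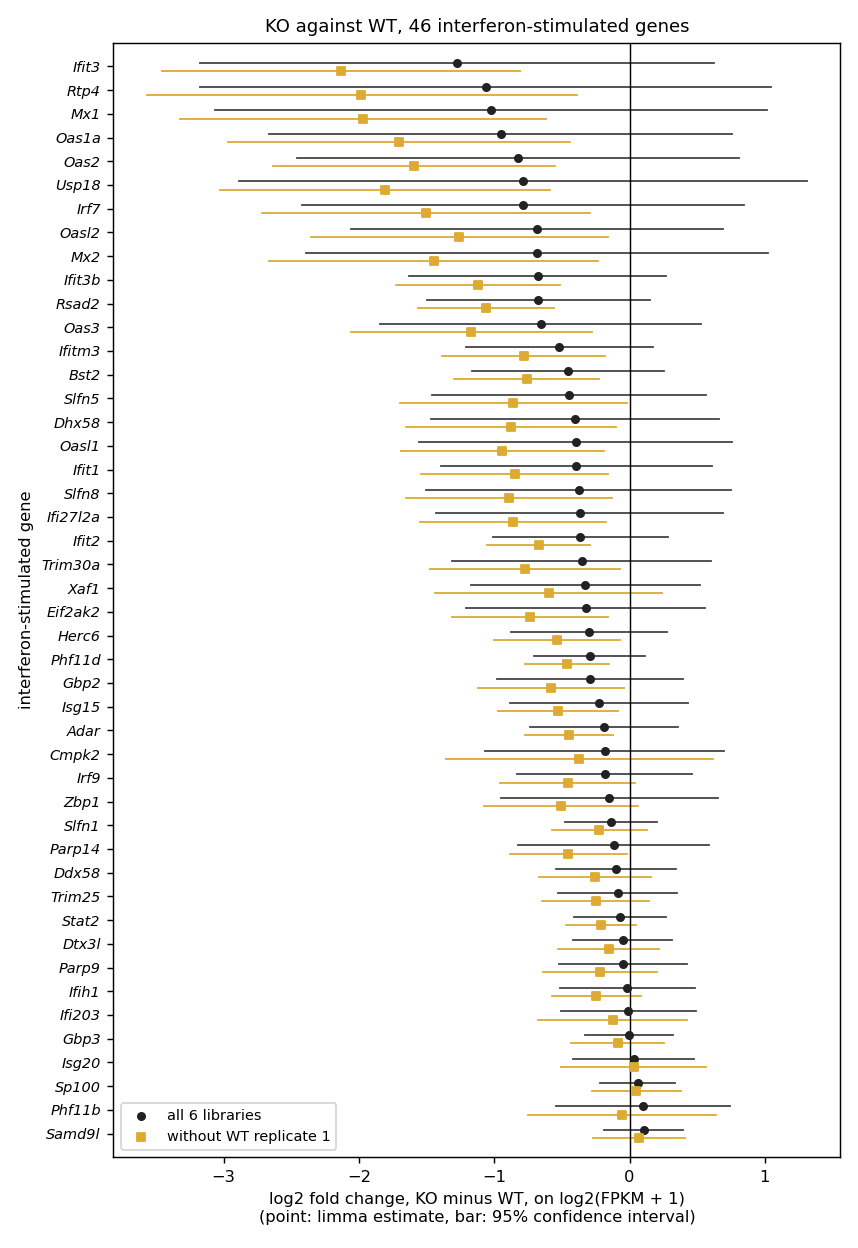
Log2 fold change, KO minus WT, on the log2(FPKM + 1) scale for the 46 members with its 95% confidence interval from limma, for all 6 libraries (black circles) and without WT1 (yellow squares). All black intervals cross 0, and most estimates lie farther below 0 without WT1.

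The transcription factors that carry the signal followed the same order of libraries, each to a different degree. *Irf7*, which drives the production of further interferon, was at 5.99, 34.2 and 26.4 FPKM in WT1, WT2 and WT3 and at 4.99, 20.4 and 9.30 FPKM in KO1, KO2 and KO3. Its level in WT1 lay beside that of KO1, and its log2 fold change was -0.79 ± 0.69 (SE, n = 3 and 3, limma, adjusted p = 0.6996; without WT1 -1.50 ± 0.50, adjusted p = 0.110). *Irf9*, the DNA-binding subunit of ISGF3, was at 28.9, 51.5 and 52.1 FPKM in the WT libraries and at 29.1, 49.7 and 36.2 FPKM in the KO libraries, given here and below in the order of the replicates. KO2 came close to WT2 and WT3, and the fold change was -0.18 ± 0.27 (adjusted p = 0.812; without WT1 -0.46 ± 0.20, adjusted p = 0.198). *Stat2*, another subunit of ISGF3, had the smallest range of these 3 genes, with 19.6, 26.2 and 26.6 FPKM in WT and 20.3, 26.0 and 22.3 FPKM in KO. Its groups overlapped over nearly their whole range (-0.07 ± 0.14, adjusted p = 0.867; without WT1 -0.21 ± 0.11, adjusted p = 0.247), and the highest library held only 1.36 times the FPKM of the lowest.

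Among the genes of the ISG15 system, the deconjugating enzyme and feedback inhibitor *Usp18* had the largest range of all members, 3.21 on the log2 scale. It was at 0.971, 17.2 and 13.9 FPKM in WT and at 1.99, 8.85 and 2.53 FPKM in KO. WT1 was thus its lowest library of all, 17.7-fold below WT2, and the fold change was -0.79 ± 0.89 (adjusted p = 0.756; without WT1 -1.81 ± 0.50, adjusted p = 0.0751). *Isg15*, the ubiquitin-like modifier that USP18 removes, was at 15.4, 31.7 and 27.6 FPKM in WT and at 15.8, 24.9 and 20.9 FPKM in KO. Its libraries kept the same order over a much narrower range (fold change -0.23 ± 0.28, adjusted p = 0.776; without WT1 -0.53 ± 0.18, adjusted p = 0.119). *Herc6*, the ligase that attaches ISG15, and *Trim25*, which ubiquitinates RIG-I, ranged over 0.96 and 0.58.

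The OAS family includes enzymes that make the short oligoadenylates that switch on RNase L, though not every member need do so. It kept the order of the libraries in 5 of 5 members tested, and its median range of 2.16 was the widest of all groups of members. *Oas1a* was at 1.88, 13.4 and 12.1 FPKM in WT and at 1.29, 7.75 and 2.75 FPKM in KO (fold change -0.95 ± 0.72, adjusted p = 0.674; without WT1 -1.70 ± 0.52, adjusted p = 0.0935). *Oas2* was at 0.263, 5.61 and 4.89 FPKM in WT and at 0.449, 2.89 and 0.571 FPKM in KO (-0.82 ± 0.69, adjusted p = 0.690; without WT1 -1.59 ± 0.43, adjusted p = 0.0703). In *Oas1a* the value of WT1 fell between those of KO1 and KO3, and in *Oas2* WT1 was the lowest of the 6 libraries. *Oasl2* was at 1.62, 7.44 and 7.80 FPKM in WT and at 0.963, 5.30 and 2.77 FPKM in KO (-0.69 ± 0.58, adjusted p = 0.693; without WT1 -1.26 ± 0.45, adjusted p = 0.129), and here WT3 exceeded WT2. *Oas1a*, *Oas1g*, *Oas2* and *Oas3* lie within 177.2 kb (chr5:120730333-120907521), with *Oasl1* and *Oasl2* elsewhere on the chromosome. The longest coding transcripts of *Oas1a* and *Oas1g* are 97.6% identical over 1861 bases, so that reads could be counted for either. *Oas1g* stayed below 0.5 FPKM in every library and was listed at 0 in KO1 and KO3.

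Of the IFIT family, which binds foreign RNA, 4 of 4 members lie within 99.3 kb (chr19:34550694-34650009). On the log2(FPKM + 1) scale *Ifit3* had the largest fold change of the members tested, -1.27 ± 0.80 (adjusted p = 0.646; without WT1 -2.13 ± 0.54, adjusted p = 0.0629), and was at 0.724, 10.6 and 8.12 FPKM in WT and at 0.458, 4.24 and 0.691 FPKM in KO. WT1 lay beside KO3, and KO2 stood 9.25-fold above KO1. Its near copy *Ifit3b*, 97.8% identical over 1700 bases, was at 0.0537, 1.86 and 1.46 FPKM in WT and at 0.01998, 0.684 and 0.0502 FPKM in KO. Those values rest on 4, 115 and 76 reads in WT and on 1, 47 and 3 reads in KO, some of which may stem from *Ifit3* (-0.68 ± 0.40, adjusted p = 0.632; without WT1 -1.12 ± 0.25, adjusted p = 0.0453). The pseudocount of 1 weighs on such low genes, since by limma-voom on the recovered reads the fold change was -2.03 for *Ifit3b*, -1.85 for *Rsad2* and -1.55 for *Ifit3*. *Ifit1* and *Ifit2* ranged over 1.51 and 1.01.

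The GTPases split into a pair with a wide and a pair with a narrow range. *Mx1* was at 0.458, 10.4 and 8.47 FPKM in WT and at 0.584, 5.04 and 0.965 FPKM in KO. WT2 exceeded WT1 by 22.8-fold and KO2 exceeded KO1 by 8.64-fold, whereas the fold change between the genotypes was -1.02 ± 0.86 (adjusted p = 0.692; without WT1 -1.97 ± 0.56, adjusted p = 0.0779). *Mx2* followed with a range of 2.43, and their transcripts share 94.8% of 920 aligned bases, so that reads could be counted for either. The guanylate-binding proteins *Gbp2* and *Gbp3* differed 2.05-fold and 1.36-fold between their highest and lowest libraries.

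The membrane and mitochondrial effectors included the most abundant member. *Rtp4*, a chaperone of membrane receptors, was at 0.820, 12.5 and 10.2 FPKM in WT and at 0.508, 6.92 and 1.51 FPKM in KO (-1.06 ± 0.89, adjusted p = 0.690; without WT1 -1.98 ± 0.65, adjusted p = 0.109). WT1 and KO1 lay below 1 FPKM, and the highest library held 24.5 times the level of the lowest. *Ifitm3*, which blocks viral fusion in endosomes, was at 0.674, 2.38 and 1.48 FPKM in WT and at 0.471, 1.25 and 0.444 FPKM in KO (-0.52 ± 0.29, adjusted p = 0.626; without WT1 -0.78 ± 0.25, adjusted p = 0.1005), with only KO2 reaching into the WT range. *Ifi27l2a* had the highest mean, with 230.0, 626 and 664 FPKM in WT and 243, 504 and 363 FPKM in KO, and *Bst2* and *Xaf1* ranged over 1.23 and 1.35. *Ifi44*, under the minimum, was at 0.149, 1.27 and 1.03 FPKM in WT and at 0.0808, 0.309 and 0.102 FPKM in KO.

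Of the RNA and nucleotide effectors, *Rsad2* (viperin), which makes a chain-terminating nucleotide, had the smallest p of all members. It was at 0.144, 1.65 and 1.4999 FPKM in WT and at 0.0714, 0.593 and 0.0957 FPKM in KO, from 15, 143 and 109 reads and 5, 57 and 8 reads. KO2 lay above WT1, so that the groups overlapped (-0.67 ± 0.35, adjusted p = 0.626 from limma; without WT1 -1.06 ± 0.21, adjusted p = 0.0331). Its neighbour *Cmpk2*, which supplies the substrate of viperin and lies with it within 37.1 kb (chr12:26442746-26479837), differed in order, since KO2 was its highest library with 3.37 FPKM against 2.58 FPKM in WT2. *Isg20*, an exonuclease, did not follow the others at all: it was at 20.1 FPKM in each of the 3 WT libraries and at 15.2, 20.8 and 27.4 FPKM in KO. *Eif2ak2* (PKR) and *Adar* kept the order, with ranges of 1.29 and 0.79, and *Samd9l* ranged over 0.49.

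**Figure D4:**
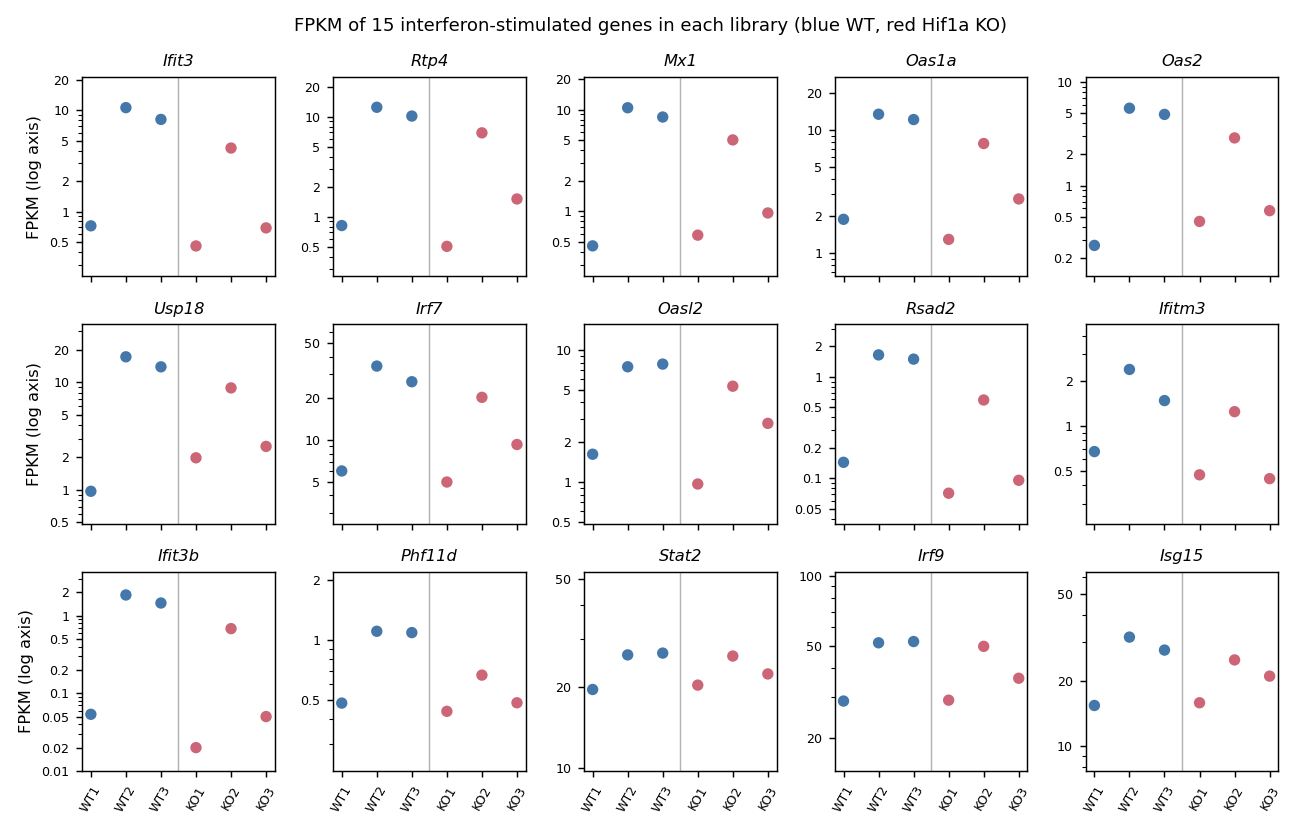
FPKM (log axis, scaled per gene) in the 6 libraries for the 15 members with the largest changes, the smallest p-values or the largest ranges and for the signalling and feedback genes, with WT in blue and KO in red. In each panel WT1 lies among or below the KO libraries, and KO2 lies above KO1.

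The sensors of nucleic acids varied less. The cytosolic RNA sensors *Ddx58* (RIG-I) and *Ifih1* (MDA5) ranged over 0.61 and 0.70 and had KO2 as their highest library, whereas *Dhx58* (LGP2) ranged over 1.52 and kept the common order. *Zbp1*, which senses Z-form nucleic acids, ranged over 1.18. *Ifi203*, of the DNA-binding p200 family, was highest in KO2 with 120.4 FPKM. *Ifi204* from the same family was at 0.0824, 0.281 and 0.315 FPKM in WT and was listed at 0 in the 3 KO libraries. It had 39 WT reads and 0 KO reads, and against the 3 reads that a count of 0 allows over the KO libraries together it was at least 12.3-fold lower in KO, a bound that covers counting error only. The WT reads numbered 6, 17 and 16, a spread that the bound leaves out. Fitted without the minimum on FPKM, it was the 1 member past an unadjusted p of 0.05 (against 3.71% of all genes lower), with a fold change of -0.29 ± 0.08 and an adjusted p of 0.727 (limma). *Ifi203* and *Ifi204* are 88.6% identical over 933 aligned bases, so that reads could be counted for either.

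The Schlafen genes, of which *Slfn5* and *Slfn8* kept the order, ranged over 1.49 and 1.64, and *Slfn1*, the tested member with the lowest mean, over 0.39. Among the genes for ADP-ribosylation and nuclear factors, the smallest ranges were found for *Sp100* (0.46), a nuclear body protein, and *Dtx3l* (0.49), while *Trim30a* (1.34) and *Parp14* (1.03) ranged wider. WT1 and KO1 were the lowest libraries in 7 of these 7 genes. *Phf11d* was at 0.480, 1.11 and 1.09 FPKM in WT and at 0.437, 0.665 and 0.482 FPKM in KO (-0.29 ± 0.17, adjusted p = 0.632; without WT1 -0.46 ± 0.13, adjusted p = 0.0756). *Dtx3l* and its partner *Parp9* overlap by 458 exon bases on opposite strands, and without a stated strand option their reads cannot be fully separated.

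By role, the median range was 2.16 in the OAS family, 1.72 in the GTPases, 1.499 in the IFIT family, 1.49 in the Schlafen family, 1.35 in the membrane and mitochondrial effectors, 1.05 in the RNA and nucleotide effectors, 0.98 in the ISG15 system, 0.83 in the transcription factors, 0.80 in the sensors and 0.62 in the ADP-ribosylation and nuclear factors. Since the log2(FPKM + 1) scale compresses low values, the ranges of members near or below 1 FPKM are understated.

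The other genes of the interferon pathway were taken from a separate list of 72 genes, of which 47 were tested. At an adjusted p under 0.05 there were 0 of 47, as there were at an unadjusted p (against 0.00% and 6.98% of all genes). Of the 47, 30 were lower in KO and 17 higher, against 57.9% of all genes lower. Their median log2 fold change was -0.03, against -0.028 for all genes. Of the 21 ligand genes only *Ifng* passed the minimum, at 1.94, 2.68 and 2.81 FPKM in WT and 1.82, 2.89 and 2.16 FPKM in KO. *Ifnb1* and 13 further type I genes were listed at 0 in every library. The receptor chains *Ifnar1* and *Ifnar2* ranged over 0.31 and 0.28, with 59.6, 52.1 and 54.1 FPKM in WT and 57.4, 60.8 and 64.7 FPKM in KO for the former (0.14 ± 0.08, adjusted p = 0.626) and 30.6, 25.1 and 26.2 FPKM against 27.9, 29.2 and 29.8 FPKM for the latter (0.09 ± 0.09, adjusted p = 0.732). WT2 and WT3, where the members were highest, were the lowest libraries for both chains.

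Of the JAK-STAT genes, *Tyk2* and *Stat3* ranged over 0.045 and 0.064. *Tlr4*, the LPS receptor, was at 6.97, 9.77 and 9.03 FPKM in WT and 8.27, 8.24 and 7.402 FPKM in KO (-0.09 ± 0.13, adjusted p = 0.809; without WT1 -0.21 ± 0.08, adjusted p = 0.159). The feedback inhibitor *Socs1* was at 13.0, 15.2 and 11.7 FPKM in WT and 11.1, 15.6 and 12.8 FPKM in KO (-0.02 ± 0.14, adjusted p = 0.972), and its sign turned with a median-ratio scaling. Of the 47 genes, 5 kept the order of the members (against 2.04% of all genes), namely *Tlr7* and the interferon-gamma targets *Igtp*, *Irgm1*, *Irgm2* and *Tgtp2*. *Tlr7*, a sensor of single-stranded RNA, was at 22.3, 45.0 and 43.5 FPKM in WT and 24.8, 40.1 and 31.3 FPKM in KO. Without WT1, 5 of the 47 pathway genes passed an adjusted p of 0.05 (limma), against 9.40% of all genes. They included *Traf3*, *Gbp6* and *Nlrc5*, lower in KO, and *Irf8*, higher in KO.

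**Figure D5:**
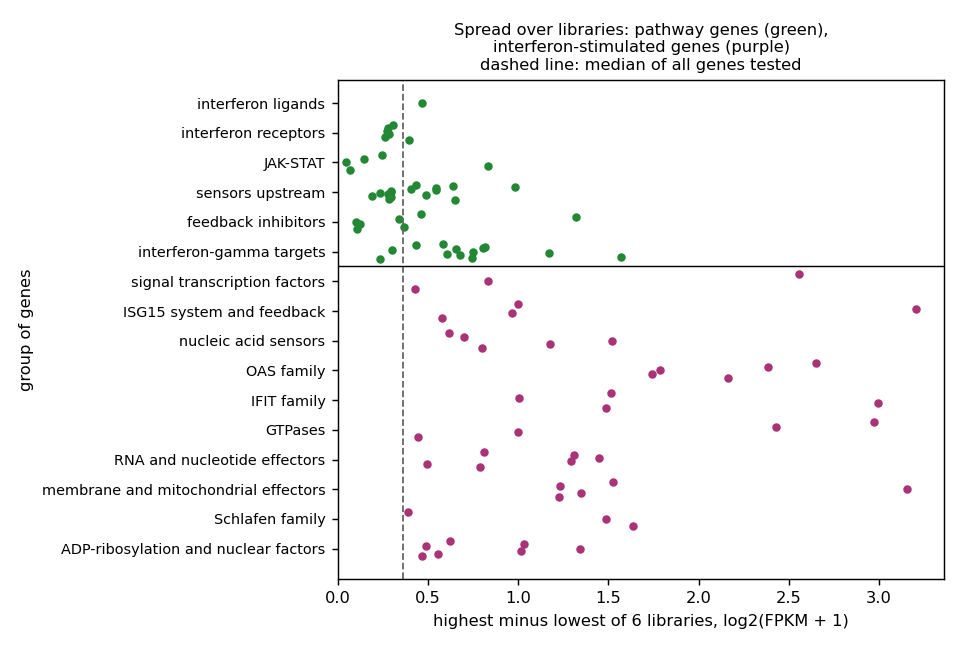
Range over the 6 libraries (highest minus lowest log2(FPKM + 1)) of each tested gene by role, with the other pathway genes in green above the line and the interferon-stimulated genes in purple below it; the dashed line marks the median of all genes tested, 0.358. Receptors lie near the dashed line and most members to the right of it.

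Markers of other cells moved with some of these libraries. The B-cell markers were high throughout, with *Cd79a* at 498 to 1203 FPKM, *Ms4a1* at 326.5 to 445 FPKM and *Pax5* at 428 to 606.7 FPKM over the 6 libraries. The macrophage and monocyte list summed to 132.1, 284.3 and 218.5 FPKM in WT and 123.6, 160.2 and 128.5 FPKM in KO. Of its 15 genes 7 were tested, all 7 with a fold change below 0 (against 57.9% of all genes). Its *Lyz2* was at 6.18, 58.3 and 26.2 FPKM in WT and 0.5996, 2.23 and 3.70 FPKM in KO, the 3 KO values lying below the 3 WT values, while *Fcgr1* was listed at 0 in WT3 and the 3 KO libraries. The list of plasmacytoid dendritic cells, known as strong producers of interferon, summed to 15.8, 14.5 and 16.6 FPKM in WT. In KO it summed to lower values, 8.971, 6.199 and 12 FPKM. Of its 6 genes 4 were tested, with 3 lower in KO (against 57.9% of all genes) and groups that did not overlap in 3 (against 10.1%). *Ccr9*, the tested gene that was higher in KO, was at 6.09, 1.17 and 1.05 FPKM in WT. In KO it was at 5.82, 2.47 and 8.43 FPKM, most of the sums of KO1 and KO3. The neutrophil list summed to 37.5 FPKM in WT1 and to at most 0.528 FPKM elsewhere, with *S100a9* listed at 0 outside WT1. The plasma cell list ran the other way, at 589.7, 324.9 and 297.3 FPKM in WT and 551.1, 408.3 and 754.4 FPKM in KO. The T-cell and NK-cell lists had 1 tested gene each, higher in KO, and the T-cell gene had groups that did not overlap. For the dendritic cell list, 3 genes were tested and all 3 were lower in KO. The part of these cells in the levels of the interferon-stimulated genes was not tested, and in bulk RNA fewer cells of a type and less RNA per cell cannot be told apart.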

How the data were processed

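Bulk RNA-seq of 6 libraries was used, 3 WT and 3 *Hif1a* KO, grouped by their labels. Per the methods, filtered read pairs were placed on mm10 by TopHat and assigned to genes by HTSeq, and the authors turned these counts into the deposited FPKM using gene length. The annotation release, the strand option and the handling of reads with several alignments are not given in the sources used here. Symbols came from GENCODE vM21, which held 46488 of 46983 gene IDs. *Mb21d1* was counted as *Cgas*. Whole reads were recovered for 25716 of 25717 genes above 0 (tolerance 0.02 reads) which gave 25030210 to 37222477 reads per library. The implied gene length was the mean length of the annotated transcripts in 61.1% of 10303 genes with several transcripts, so that levels of different genes depend on this length and comparisons between libraries do not.

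Genes with a mean of at least 0.5 FPKM (13312) were fitted with limma 3.58.1 (lmFit, eBayes with trend, R 4.3.3) on log2(FPKM + 1), KO minus WT, with no covariate, and p-values were two-sided and adjusted by Benjamini-Hochberg over all genes tested. The pseudocount of 1 understates the changes of low genes. The fit was tested on simulated data. An exact permutation test of 3 libraries against 3 cannot go below p = 0.10 and was not used. Sequences were handled with biopython 1.88, tables with numpy 2.4.6 and pandas 2.3.3 and plots with matplotlib 3.10.9 under Python 3.11.15. No pair of libraries was identical (0 pairs).

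The members were given by name with no measured value in the rule, but they, the lists and the tests were chosen with earlier results of these data known. Values in every library are given for the 8 members with the largest absolute fold change, the 5 with the smallest p, the 6 with the largest range, *Stat2*, *Irf9*, *Irf7*, *Isg15* and *Usp18*, and the pathway genes *Ifnar1*, *Ifnar2*, *Tlr4* and *Socs1*. Some values are not reported here. *Ifi27l2a*, *Isg20*, *Cmpk2*, *Ifng*, *Tlr7*, *Lyz2*, *Fcgr1*, *Ccr9*, *S100a9* and the members under the minimum were named besides, after their values had been seen. Promoters were those of RefSeq, GRCm38.p6. The 15 alternatives changed the pseudocount (0.1 or 5), the minimum (none or 5), the scaling (median-ratio or quantile), the trend, a replicate block, the test (limma-voom on the recovered reads) and each library in turn.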

Additional observations from a re-analysis of the deposited data

How the results depend on the processing

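The number of members at an adjusted p under 0.05 was 0 in all fits except without WT1 (2), and ranged from 0 to 2 as libraries were left out. The number at an unadjusted p was 1 with no minimum (*Ifi204*), 11 with the replicate number as a block (all lower in KO, against 3.39% of all genes lower) and 0 to 29 without one library (29 without WT1, 0 without each other one). The number whose groups did not overlap was 1 with no minimum (*Ifi204*) and 0 to 32 without one library (32 without WT1, 5 without KO2, 1 without KO1, *Isg20*, and 1 without KO3, *Samd9l*). The median log2 fold change ran from -0.63 without WT1 to -0.09 without WT2 (-0.58 without KO2, -0.27 without KO3, -0.19 without WT3 and -0.15 without KO1), was -0.28 to -0.32 with other scalings or limma-voom, and lay between -0.36 and -0.21 with other pseudocounts and minimums. Members below 0 numbered 42 of 46 (against 57.9% of all genes), 31 without KO1 (57.3%), 34 without WT2 (56.0%) and 45 without KO2 (58.5%). The number of other pathway genes at an adjusted p ranged from 0 to 5 (5 of 47 without WT1, against 9.40% of all genes). *Socs1* turned to 0.0247 under the median-ratio scaling and to 0.0162 after quantile normalization, and ran from -0.1378 without KO2 to 0.0923 without KO1 (0.0754 without WT2). *Tlr4* ran from -0.2138 without WT1 to 0.0031 without WT2, and *Stat2* from -0.2084 without WT1 to 0.0095 without KO1 (0.0055 without WT3). Of 292 refits of the 20 genes named by rule, 282 kept direction and side. The cause was not tested.

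The labels do not say whether libraries of the same replicate number were paired. Over 13312 genes the deviations from the group means correlated at -0.099, 0.139 and -0.276 for numbers 1, 2 and 3. WT1 correlated best with KO3 (0.304). These correlations cannot decide on a pairing, since the deviations of the 3 libraries of a group are tied to each other. The block is therefore not read as a paired design, and its 11 members had no adjusted p under 0.05. Members under 1 FPKM rest on few reads, and a difference of 1 read is a large share of *Ifit3b* in KO1.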

Other observations

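The order of libraries shown by the interferon-stimulated genes was also found in genes outside the lists. Of the 272 genes that kept it, 25 were members, 5 were other pathway genes 1 was a marker and 241 were on no list, and 25 of those 241 ranged over more than 1 on the log2(FPKM + 1) scale, as did 20 of the 25 members. The genes named here were chosen after their values had been seen, by range or because they belong to a family of the members, and they were not tested for this order. The lists need not hold every gene that interferon stimulates, and a response of the genes named here to interferon was not tested. *Ly6a*, which encodes the surface antigen Sca-1, was at 119.5, 514 and 416 FPKM in WT and at 120.6, 352 and 184 FPKM in KO. *Lgals3bp*, a secreted glycoprotein, was at 50.9, 247 and 231 FPKM in WT and at 52.0, 105 and 78.8 FPKM in KO. *Oas1b*, annotated as a polymorphic pseudogene, ran from 5.03 FPKM in WT1 to 11.8 FPKM in WT3, *Trim30d* from 22.3 FPKM in WT1 to 51.9 FPKM in WT2 and *Gbp10* from 0.170 FPKM in KO1 to 1.45 FPKM in WT2. *Mov10*, an RNA helicase, was at 6.58, 16.6 and 14.3 FPKM in WT and at 7.13, 11.9 and 7.36 FPKM in KO.

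Inflammatory caspases had the order as well. *Casp4*, which senses intracellular LPS, was at 4.84, 30.9 and 44.6 FPKM in WT and at 6.36, 29.6 and 28.3 FPKM in KO, so that KO2 and KO3 both lay near WT2 and far above WT1 and KO1. *Casp1* was at 21.5, 45.6 and 47.9 FPKM in WT and at 26.9, 30.5 and 28.2 FPKM in KO. Among the genes on no list that kept the order, the widest range was that of *Marco*, a scavenger receptor of macrophages and marginal zone cells, at 0.164, 18.8 and 7.31 FPKM in WT and at 0.313, 0.634 and 0.554 FPKM in KO, which like *Acod1* (0.0717, 2.00 and 0.749 FPKM in WT, 0.0305, 0.155 and 0.115 FPKM in KO) is known from macrophages. None of the genes in these paragraphs passed an adjusted p of 0.05 between the genotypes (limma), and the adjusted p of *Casp4* was 0.968 and that of *Marco* 0.626.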
